A study of Mus musculus with 6 samples.

Results

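Within the imprinted Dlk1-Dio3 region of mouse chromosome 12, the stretch from the end of the long non-coding RNA gene Meg3 into the introns of a second one, Rian, holds a loose series of miRNA hairpins. This account covers 10 mature miRNAs from 7 of these hairpins, taken by name out of the 1907 mature miRNAs that were counted: mmu-miR-673-5p, mmu-miR-673-3p, mmu-miR-493-3p, mmu-miR-337-5p, mmu-miR-337-3p, mmu-miR-540-5p, mmu-miR-540-3p, mmu-miR-665-3p, mmu-miR-341-3p and mmu-miR-370-3p. All lie in this stretch, but position alone did not set the list. It leaves out 11 other arms and hairpins placed in the same stretch or, for miR-770, within Meg3, which were sparse. The miRNAs antisense to Rtl1 and those of the large downstream cluster around Mirg were kept apart. All 10 were low in serum. The 6 of them with 10 or more counts in every library were called higher in both ground-state media. Of all 402 tested miRNAs with such counts, 13.2% were called higher in 2i and 11.4% in R2i. The share of the 10 in the counts of the whole locus stayed between 3.17% and 3.53% in the 6 libraries.

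Small RNA was sequenced from 2 mouse embryonic stem cell (ESC) lines, RB18 and RB20, each cultured in serum, 2i and R2i, so that each of the 3 media had 2 libraries. Both lines came from C57BL/6 mice and were isolated in R2i with LIF (leukemia inhibitory factor), and parts of them were then moved to 2i or to serum for more than 10 passages. Each library was made from a pool of 3 cultures, and the 2 lines served as the replicates of a medium. Serum ESCs received 15% fetal bovine serum without inhibitors. The 2i medium was serum free and held 1 µM PD0325901, an inhibitor of the kinase MEK, with 3 µM CHIR99021, an inhibitor of the kinase GSK3. R2i was the same serum-free base with 1 µM PD0325901 and 10 µM SB431542, an inhibitor of TGF-β receptors. All groups shared the strain, 1000 U/ml mLIF and gelatin-coated plates without feeder cells. Here, 2i and R2i are together called the ground state.

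Imprinted genes are transcribed from the copy of one parent. In the Dlk1-Dio3 region, Dlk1, Rtl1 and Dio3 encode proteins and are expressed from the paternal chromosome, whereas Meg3, Rian, Mirg and the miRNAs are expressed from the maternal one, and the maternal RNAs are thought to arise largely from transcription that starts at Meg3. Silencing of these maternal RNAs is a known defect of some induced pluripotent cell lines. A mature miRNA is cut from one arm of a hairpin, loaded into an Argonaute protein and guided to its target mRNAs mainly by its seed, bases 2 to 8. Human counterparts are known for miR-493, miR-337, miR-665 and miR-370.

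The mature sequences are shown to let the 10 miRNAs be told apart by their seeds, which stand in capitals. Sequences and positions come from RefSeq (GRCm38.p6, all on the plus strand), where 10 of the 10 names were found, and the lines run in chromosome order.
miR-673-5p, chr12:109572004-109572025: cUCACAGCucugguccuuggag
miR-673-3p, chr12:109572044-109572066: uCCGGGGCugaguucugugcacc
miR-493-3p, chr12:109580283-109580305: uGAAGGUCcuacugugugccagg
miR-337-5p, chr12:109585818-109585839: cGGCGUCAugcaggaguugauu
miR-337-3p, chr12:109585850-109585871: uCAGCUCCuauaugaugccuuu
miR-540-5p, chr12:109586085-109586107: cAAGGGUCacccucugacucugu
miR-540-3p, chr12:109586122-109586141: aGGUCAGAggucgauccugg
miR-665-3p, chr12:109586368-109586387: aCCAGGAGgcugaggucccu
miR-341-3p, chr12:109611556-109611576: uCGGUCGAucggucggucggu
miR-370-3p, chr12:109618305-109618326: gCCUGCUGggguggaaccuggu

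The 10 seeds were 10 different ones, so no pair among these miRNAs formed a seed family. Only miR-673-5p and miR-540-3p shared a seed with any other mouse miRNA of the RefSeq table, namely miR-6985-3p and miR-6915-5p, and both of these had 0 counts in all 6 libraries. Each mature sequence occurred in 1 hairpin alone, so reads of the full length had 1 place of origin among the annotated hairpins. The miRNAs were rich in G and C, with a median of 59.6% (40.9% to 68.2%) against 47.8% for the other 100 miRNAs placed in the locus and 52.2% for all 1679 mouse miRNAs of the table. In miR-341-3p the letters CGGU occurred 4 times within 21 bases.

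On the GENCODE M21 annotation of the same assembly, Meg3 spans chr12:109541001-109571726 and Rian spans chr12:109603940-109661716. The Mir673 hairpin lay 264 bases beyond the annotated end of Meg3. Mir493 followed after a gap of 8152 bases and Mir337 after a further 5473, and then Mir337, Mir540 and Mir665 lay close together with gaps of 194 and 167 bases. These first 5 hairpins fell in no annotated transcript of their own strand. Mir341 and Mir370 lay 25092 and 6662 bases further on, each past the hairpin before it. Both were in introns of Rian transcripts and overlapped no exon. Mir337 overlapped the hairpin Mir3544 on the other strand, and whether reads were counted by strand is not given in the sources used here. The arms of miR-3544 had 2 counts in all libraries together, 1 in serum RB18 and 1 in 2i RB18.

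Since the maternal RNAs of the locus are thought to start at Meg3, the RefSeq promoter window of Meg3 is shown as well. Its activity was not measured here. The window holds 250 bases before the RefSeq start at chr12:109540996 and 50 bases from that start on (GRCm38.p6, chr12:109540746-109541045, plus strand). It is the more upstream of the 2 Meg3 windows in the table, and its start differs by a few bases from the GENCODE one given above. Capitals mark the letters TGACGTCA, CCAAT and TATATAA, searched on both strands.
Meg3 promoter window: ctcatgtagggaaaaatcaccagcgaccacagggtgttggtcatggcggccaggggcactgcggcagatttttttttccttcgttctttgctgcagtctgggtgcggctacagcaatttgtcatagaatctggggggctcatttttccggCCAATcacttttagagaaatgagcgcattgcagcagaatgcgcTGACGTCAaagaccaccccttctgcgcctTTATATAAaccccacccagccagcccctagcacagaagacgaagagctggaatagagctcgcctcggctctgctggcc

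TGACGTCA, the letters of a cyclic-AMP response element, were found once in this window, with their first base at position -57 from the RefSeq start, and occurred in 1.79% of 32851 promoter windows of the same length. CCAAT began at -100 and occurred in 37.4% of windows. TATATAA was read on both strands over the same stretch, from -28 and -27, and occurred in 3.24% of windows. The window held 13 CG dinucleotides. These matches describe letters and no binding was measured.

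Library totals ran from 1041858 counts (R2i RB18) to 3593356 (R2i RB20), and RB18 had the smaller library in each medium, so that line and depth cannot be told apart. Levels are given as normalized CPM, the rate of a miRNA among the counts of its library after TMM scaling, and a count of 3 corresponded to between 0.858 and 2.57 normalized CPM. Counts are reads rather than molecules, so the intervals of counts and shares given here cover counting error only. Fold changes come from edgeR's quasi-likelihood test over the 571 miRNAs that passed a filter on low counts, and the call required a p adjusted by the Benjamini-Hochberg method of less than 0.01 and more than 2-fold change. All 10 miRNAs passed that filter, but 4 of them (miR-673-3p, miR-493-3p, miR-337-3p and miR-540-5p) passed only through their ground-state libraries. An exact permutation of 2 libraries against 2 cannot give a two-sided p below 0.33, so each p rests on the spread that edgeR shares between miRNAs, which here is the spread between lines, pools and sequencing together. The labelled cell type was checked by the miR-290 to miR-295 cluster, which is typical of mouse ESCs and took 33.0% to 42.9% of the counts of the 6 libraries.

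The first comparison asked how far the 10 miRNAs differed between serum and each ground-state medium. The 6 miRNAs with 10 or more counts in every library (miR-673-5p, miR-337-5p, miR-540-3p, miR-665-3p, miR-341-3p and miR-370-3p) were called higher in 2i, 6 of 6, where 13.2% of the 402 tested miRNAs with such counts were called higher. In R2i they were also called, 6 of 6, against 11.4%. Their median log2 fold change was 3.72 in 2i and 3.70 in R2i, beside medians of -0.09 and -0.10 over those 402. The other 4 had passed the filter only through the libraries in which they were high, so their calls are listed without being counted as support. Of them, miR-673-3p, miR-337-3p and miR-540-5p were called in both media and miR-493-3p in neither, which made 9 of 10 in all in 2i, in R2i and for the mean of both, where 16.8%, 15.1% and 17.0% of all 571 tested miRNAs were called higher. The comparisons with 2i and with R2i use the same serum libraries and are not independent of each other. In bulk RNA, fewer cells with a miRNA and less of it per cell cannot be told apart. For the 6 well-counted miRNAs, and for miR-673-3p, miR-337-3p and miR-540-5p among the sparse ones, both serum libraries lay below all 4 ground-state libraries, a pattern that 29.1% of all tested miRNAs showed.

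**Figure D1:**
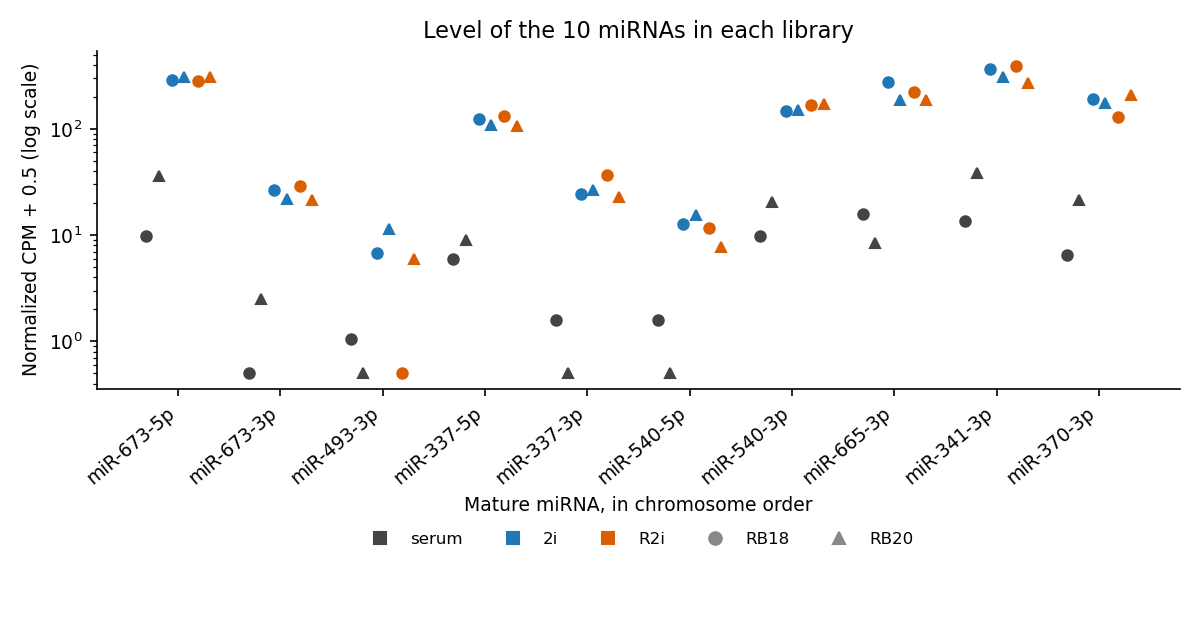
Normalized CPM plus 0.5 (log axis) of the 10 miRNAs, in chromosome order, with 1 point per library, coloured by medium and shaped by cell line, so that a point at 0.5 is a library with 0 counts. Apart from miR-493-3p, which had 0 counts in R2i RB18, each miRNA had both serum points below its 4 ground-state points.

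Of the hairpins described, the one nearest to Meg3 gave miR-673-5p as its main product. Its normalized CPM was 9.3 in serum RB18, 35.2 in serum RB20, 286.6 in 2i RB18, 303.7 in 2i RB20, 280.4 in R2i RB18 and 309.4 in R2i RB20. The ground-state libraries lay within a narrow band, and both serum libraries were far below it, with RB18 the lower. The log2 fold change in edgeR was 3.72 (SE 0.53, adjusted p = 0.000661) in 2i and also 3.72 (SE 0.53, adjusted p = 0.000821) in R2i. The size depended on the serum line, since without serum RB20 it was 4.93 in each medium and without serum RB18 3.17, and the calls held. From the other arm, miR-673-3p was counted 0 and 4 times in the serum libraries (RB18, then RB20), 54 and 70 times in those of 2i, and 33 and 73 times in those of R2i. The groups did not overlap. With so few serum reads, the ratio of pooled counts per depth is the safer measure, and it was 22.3 (95% counting interval 8.51 to 83.3) in 2i and 21.9 (8.29 to 81.7) in R2i. The fitted value hung on the serum libraries, with 4.45 in 2i going to 3.65 without serum RB18 and to 8.81 without serum RB20, where no serum read was left.

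The miR-493 hairpin was the weakest of the series, and miR-493-3p was the only one of the 10 miRNAs whose groups overlapped. Its other arm, miR-493-5p, had 2 and 2 counts in serum and 9 to 20 in the ground state. Counts of miR-493-3p, whose human counterpart is known, amounted to 1 and 0 for the serum libraries, 13 and 36 for those of 2i, and 0 and 19 for those of R2i. R2i RB18, the shallowest library, thus held no read where the other 3 ground-state libraries held 13 or more. A count of 0 there allows up to 2.57 normalized CPM, below the 5.43 of R2i RB20 and the 6.32 and 11.0 of the 2i libraries. The log2 fold change was 4.82 (SE 1.34) in 2i with an edgeR adjusted p = 0.0187, and 3.54 (SE 1.53) in R2i with an edgeR adjusted p = 0.102, so neither passed the test. Without R2i RB20 the R2i value turned to -2.40. The 2i value passed without R2i RB18 or without R2i RB20 (adjusted p = 0.0066 and 0.0086 in edgeR). The pooled ratios, 35.3 (6.05 to 1423) and 15.7 (2.49 to 651), rest on 1 read in serum.

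The 3 hairpins that lie close together, miR-337, miR-540 and miR-665, gave 5 of the miRNAs. Of these, miR-337-5p had the smallest error. It stood at 5.47 and 8.42 normalized CPM in serum (RB18, then RB20), 122.9 and 109.0 for 2i, and 132.9 and 105.2 in R2i. The 2 serum libraries were close to each other, and the lowest ground-state library was 12.5-fold above the higher of them. Its log2 fold change in edgeR was 4.04 (SE 0.32, adjusted p = 6.95e-05) in 2i and 4.07 (SE 0.32, adjusted p = 0.000164) in R2i, and leaving out any one library kept it between 3.88 and 4.38. Reads of miR-337-3p numbered 2 and 0 in the serum libraries, 49 and 85 for 2i, and 42 and 78 for R2i, with no overlap. Its log2 fold changes were 5.44 and 5.62, but became 4.39 and 4.58 without serum RB20 and 8.93 and 9.11 without serum RB18, so no rank is read from them. The pooled ratios of 48.3 (13.1 to 403) and 49.5 (13.4 to 413) rest on 2 reads in serum and have wide intervals.

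The neighbouring hairpin gave mainly miR-540-3p. Its normalized CPM was 9.3 and 19.8 in serum, 145.7 and 149.9 for 2i, and 166.3 and 171.8 in R2i, in the order RB18 then RB20. Within each ground-state medium the lines nearly coincided. In edgeR its log2 fold change was 3.33 (SE 0.36, adjusted p = 0.000164) in 2i and 3.52 (SE 0.36, adjusted p = 0.000208) in R2i, and without serum RB20 it was 3.93 and 4.13. The minor arm, miR-540-5p, was counted 2 and 0 times in the serum libraries, 25 and 49 times for 2i, and 13 and 25 times for R2i. Its groups did not overlap, and the pooled ratios were 26.7 (7.13 to 224) in 2i and 15.7 (4.05 to 134) in R2i. The R2i call was the least secure of the 9, at an edgeR adjusted p = 0.00625 that became 0.0141 with the cell line as a replicate block. The fitted values moved from 4.57 and 3.92 to 3.52 and 2.88 without serum RB20 and to 8.07 and 7.41 without serum RB18. The R2i call was also lost without serum RB20, 2i RB20, R2i RB18 or R2i RB20, and the 2i call was lost without serum RB20 or 2i RB20.

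At 15.3 and 7.93 normalized CPM in serum, 274.9 and 185.0 for 2i, and 223.8 and 187.3 in R2i (RB18, then RB20), miR-665-3p was, of the miRNAs with 10 or more counts in every library, the one that was lower in RB20 in each medium. No serum library came near a ground-state one. In edgeR it gave a log2 fold change of 4.31 (SE 0.40, adjusted p = 8.43e-05) in 2i and 4.14 (SE 0.40, adjusted p = 0.000171) in R2i, and without serum RB18 it was 4.95 and 4.79.

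In the introns of Rian, miR-341-3p and miR-370-3p both rose. The most read of the 10 over the 6 libraries was miR-341-3p, at 13.1 and 37.7 normalized CPM in serum, 363.3 and 307.3 for 2i, and 388.4 and 271.3 in R2i. RB20 was the higher line in serum and the lower one in both ground-state media. By edgeR the log2 fold change was 3.71 (SE 0.48, adjusted p = 0.000428) in 2i and 3.68 (SE 0.48, adjusted p = 0.00056) in R2i, and without serum RB20 it was 4.61 and 4.6. For miR-370-3p, studied elsewhere as a regulator of lipid metabolism in liver, the levels were 6.02 and 20.8 in serum, 188.5 and 173.7 for 2i, and 129.5 and 206.2 in R2i. The R2i libraries spread more than those of 2i, yet the lowest of the 4 was 6.22-fold above the higher serum library. Its log2 fold change in edgeR was 3.73 (SE 0.52, adjusted p = 0.000598) in 2i and 3.63 (SE 0.52, adjusted p = 0.000845) in R2i, and without serum RB20 it was 4.84 and 4.74.

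**Figure D2:**
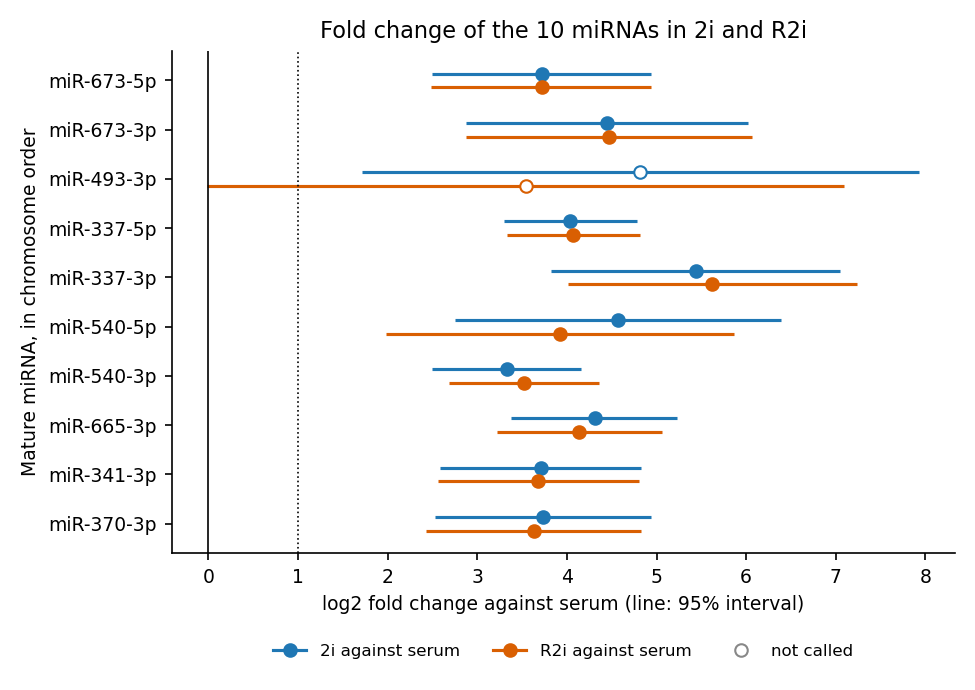
The log2 fold change of each miRNA in 2i and in R2i against serum, in chromosome order, with 95% intervals from the edgeR fit; open points were not called, and the dotted line marks a 2-fold change. The intervals of miR-337-5p run from 3.30 to 4.78 in 2i and from 3.33 to 4.82 in R2i, and that of miR-493-3p in R2i reaches from -0.01 to 7.09.

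In 2i, the folds of the 6 miRNAs with 10 or more counts in every library ran from 10.1 for miR-540-3p to 19.8 for miR-665-3p with intervals that overlapped one another, and an order between them was not tested.

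The second comparison asked whether the inhibitor that accompanies PD0325901, CHIR99021 in 2i or SB431542 in R2i, made a difference to these miRNAs. None of the 10 was called between R2i and 2i by edgeR (0 of 10, also 0 at an unadjusted p under 0.05, and 0 in DESeq2 and limma), where 0.35% of all tested miRNAs were called in either direction. Their median log2 difference, R2i minus 2i, was -0.01, equal to that over all tested miRNAs. The data limit the difference more tightly for some than for others. For miR-337-5p it was 0.033 with a 95% interval from -0.56 to 0.63, and for miR-540-3p it was 0.19 (-0.52 to 0.91). For miR-673-5p the interval ran from -1.06 to 1.06, for miR-370-3p from -1.12 to 0.92 and for miR-341-3p from -1.0 to 0.95. These intervals leave room for changes of up to about the 2-fold limit. At the sparse end, miR-493-3p was at -1.28 (-3.19 to 0.63) and miR-540-5p at -0.65 (-1.81 to 0.51), so larger differences of these were not detectable at this depth.

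Summed over the 10 miRNAs, the level was 61.3 normalized CPM in serum RB18 and 131.8 in serum RB20. It was 1450 and 1302 in 2i and 1397 and 1307 in R2i, again RB18 before RB20. The means were 96.6 ± 49.9 (SD, n = 2) in serum, 1376 ± 105 in 2i and 1352 ± 63.5 in R2i, which made 2i 14.3-fold and R2i 14-fold higher than serum. Even so, the 10 miRNAs were a minor part of the small RNA of these cells, rising from 0.00642% and 0.0119% of all counts in serum to between 0.127% and 0.156% in the ground state.

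The rise was shared with the rest of the locus. Of all counts of the 110 miRNAs placed between Meg3 and the end of Mirg, the 10 held 3.20% (95% Wilson interval 2.67% to 3.83%) in serum RB18 and 3.17% (2.82% to 3.57%) in serum RB20. In 2i they held 3.53% (3.41% to 3.66%) in RB18 and 3.48% (3.38% to 3.59%) in RB20. In R2i the shares were 3.34% (3.19% to 3.51%) and 3.37% (3.28% to 3.47%). While the summed level changed 14-fold, the share of the locus thus stayed between 3.17% and 3.53%. The miRNAs antisense to Rtl1 held 53.6% to 58.4% of the locus in the 6 libraries and the miR-379 cluster to the end of Mirg 38.2% to 42.9%.

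**Figure D3:**
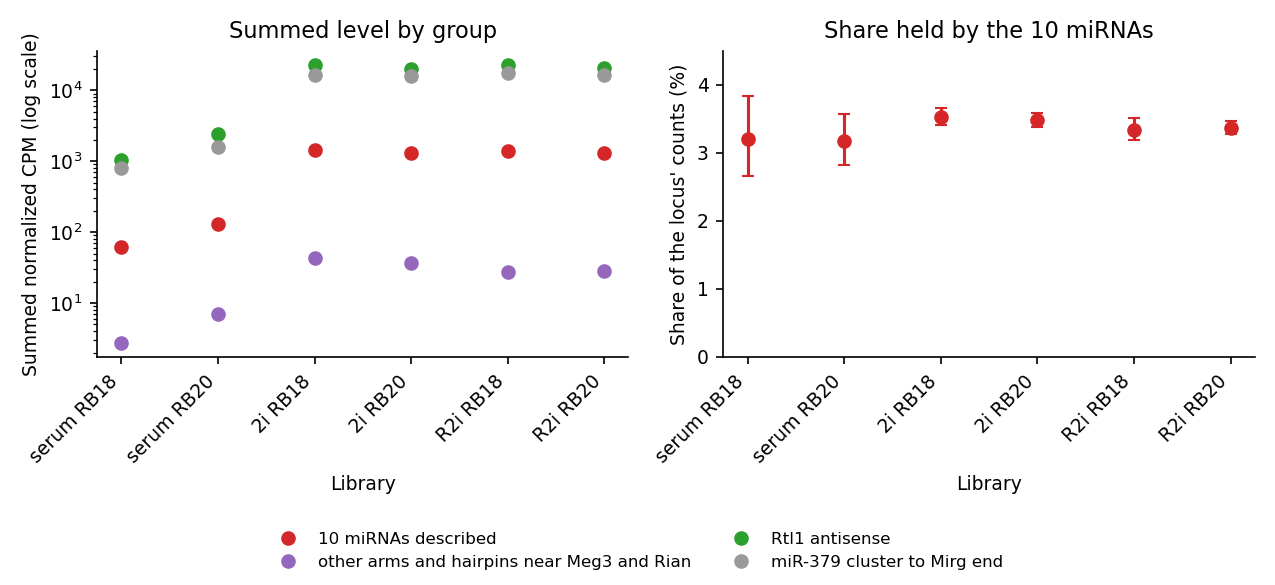
Left, summed normalized CPM (log axis) of 4 groups of locus miRNAs in the 6 libraries; right, the share of the locus' counts held by the 10 miRNAs with 95% Wilson intervals. The levels step up together between serum and the ground state, while the share stays between 3.17% and 3.53%.

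Along the locus, the fold changes of this stretch lay within the range of the others. The median log2 fold change of the ground state over serum was 4.12 for the 10, a value that includes the sparse miRNAs. For the 6 with 10 or more counts in every library the median was 3.72 in 2i and 3.7 in R2i. The 10 tested miRNAs antisense to Rtl1 had a ground-state median of 3.87, and 9 of them were called higher. The 49 tested of the miR-379 cluster had 3.94, and 46 were called higher. Of all 571 tested miRNAs, 17.0% were called higher. The most abundant antisense to Rtl1, miR-127-3p, stood at 871 and 2101 normalized CPM in serum and at 16320 to 19060 in the ground state. The most abundant of the miR-379 cluster, miR-541-5p, went from 451.5 and 808.7 to between 7495 and 9366. The remaining arms and hairpins, in the same stretch or within Meg3, were sparse, and 4 of 11 could be tested: miR-770-3p, miR-493-5p, miR-341-5p and miR-370-5p. All 4 had positive log2 fold changes, from 2.37 to 3.18 for the ground state, but 0 of 4 were called there by edgeR, with adjusted p from 0.0115 to 0.0421. In 2i, 1 of the 4, miR-341-5p, was called (adjusted p = 0.00996 in edgeR), and in R2i 0 of 4. The most abundant, miR-370-5p, had 0 and 6 counts in serum against 6 to 45 in the ground state.

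**Figure D4:**
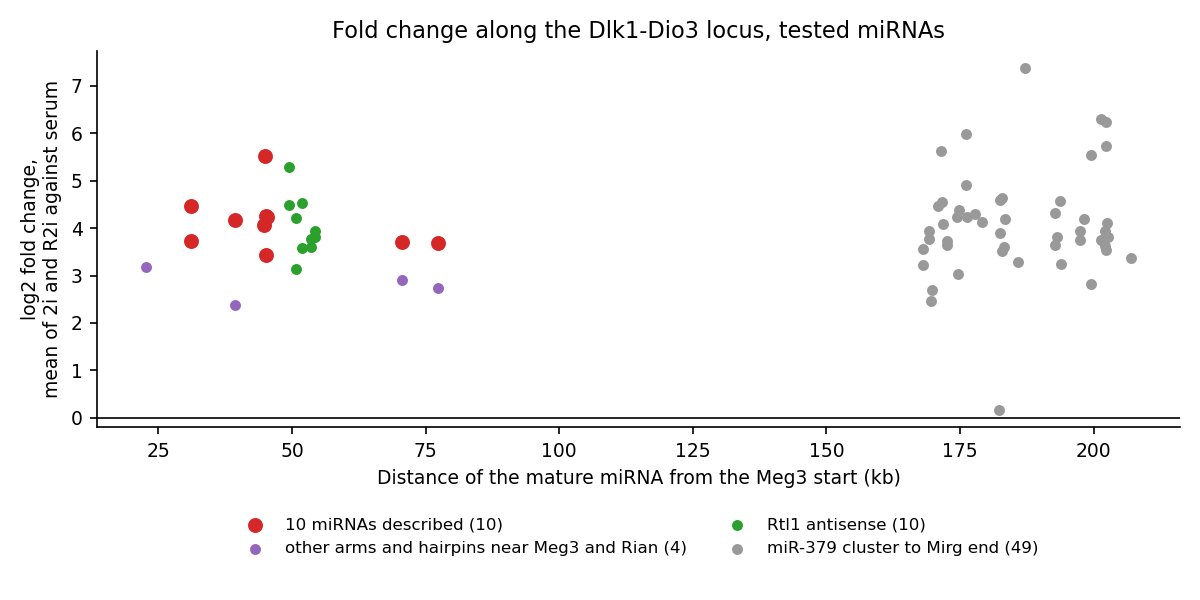
The log2 fold change of the mean of 2i and R2i against serum for the 73 tested miRNAs of the locus, by distance in kb from the start of Meg3, coloured by group. The 10 miRNAs lie between 3.43 and 5.53, within the range of the downstream cluster (0.16 to 7.38).

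The miRNAs whose pattern over the 6 libraries was most like the summed level of the 10 were looked for among the 561 other tested miRNAs, by Pearson correlation of log2 normalized CPM. The first 5 were miR-411-5p (0.9994), miR-679-5p (0.9993), miR-127-3p (0.9992), miR-409-3p (0.9992) and miR-300-3p (0.9987). All 5 lie in the same locus, as do 45 of the first 50. The 6 points share their libraries and fall into a low and a high cluster, so the values describe mainly the step from serum to the ground state. The names depended on the measure: by Spearman correlation, 12 miRNAs stood at or above the fifth place with ties, and 2 of the 5 named, miR-127-3p and miR-411-5p, were among those 12.

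The lines differed in serum more than in the ground state. The summed level of the 10 was 2.15 times higher in RB20 than in RB18 in serum, but 0.898 times in 2i and 0.936 times in R2i. The 63 other tested miRNAs of the locus gave the same picture, with ratios of 2.17, 0.911 and 0.927, whereas the 498 tested miRNAs outside the locus gave 1.16, 1.03 and 1.16. With 1 library per line and medium, these ratios have no replicate and no test. Singly, the ratio in serum was 3.78 (95% counting interval 2.20 to 6.85) for miR-673-5p, 3.46 (1.75 to 7.45) for miR-370-3p, 2.87 (1.79 to 4.75) for miR-341-3p and 2.13 (1.18 to 4.01) for miR-540-3p. It was 1.54 (0.666 to 3.76) for miR-337-5p, an interval that includes no difference.

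Against this pattern, miR-665-3p was 0.517 times (0.262 to 0.990) as high in RB20 as in RB18 in serum, 0.673 times (0.599 to 0.756) in 2i and 0.837 times (0.724 to 0.970) in R2i. It was thereby the first of the 10 by level in serum RB18, with 25% (17.9% to 33.8%) of their counts, and the sixth in serum RB20, with 6.02% (3.74% to 9.55%). Its share in the 4 ground-state libraries was 14.2% to 19.0%. Within each line, the log2 ratios to serum were read for the 6 miRNAs with 10 or more counts in every library. For 2i they ran from 3.9 to 4.87 in RB18 and from 2.89 to 4.46 in RB20. For R2i they ran from 3.83 to 4.84 in RB18 and from 2.83 to 4.48 in RB20. Over all 10, the medians were 4.24 and 3.38 for 2i and 4.40 and 3.42 for R2i, with miR-493-3p at -1.07 for R2i in RB18. These medians include the sparse miRNAs, whose ratios rest on 4 or fewer reads in each serum library and are not counted as support.

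In 6 of the 7 hairpins, all but miR-493, the same arm gave most of the reads in every library. Over all libraries, the 3p arm gave 7.06% (95% exact interval 6.21% to 7.98%) of miR-673 reads and 18.1% (16.1% to 20.2%) of miR-337 reads, so both favoured 5p. It gave 93.5% (92.3% to 94.6%) of miR-540 reads. The arms listed for miR-665, miR-341 and miR-370 took 99.6%, 97.2% and 94.1% of the reads of their hairpins. In serum, with 92, 29 and 59 reads of both arms, the 3p shares were 4.35% (1.20% to 10.8%) for miR-673, 6.90% (0.846% to 22.8%) for miR-337 and 96.6% (88.3% to 99.6%) for miR-540. In 2i they were 7.26% (6.07% to 8.59%), 18% (15.3% to 21%) and 91.4% (89.4% to 93.2%). In R2i they were 7.0% (5.76% to 8.4%), 18.7% (15.7% to 21.9%) and 95.4% (93.8% to 96.7%). The pooled serum intervals include the ground-state shares, so no shift of arms between pooled serum and the ground state was detectable at this depth. Between the 2 ground-state media, the pooled 2i and R2i intervals of miR-540 did not overlap. Within RB18 the miR-540 intervals did overlap, at 92.3% (88.9% to 95%) in 2i and 93.7% (89.5% to 96.6%) in R2i. Within RB20 they did not, at 90.9% (88.2% to 93.2%) in 2i and 96.0% (94.2% to 97.4%) in R2i. The pooled R2i share rests largely on R2i RB20.

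**Figure D5:**
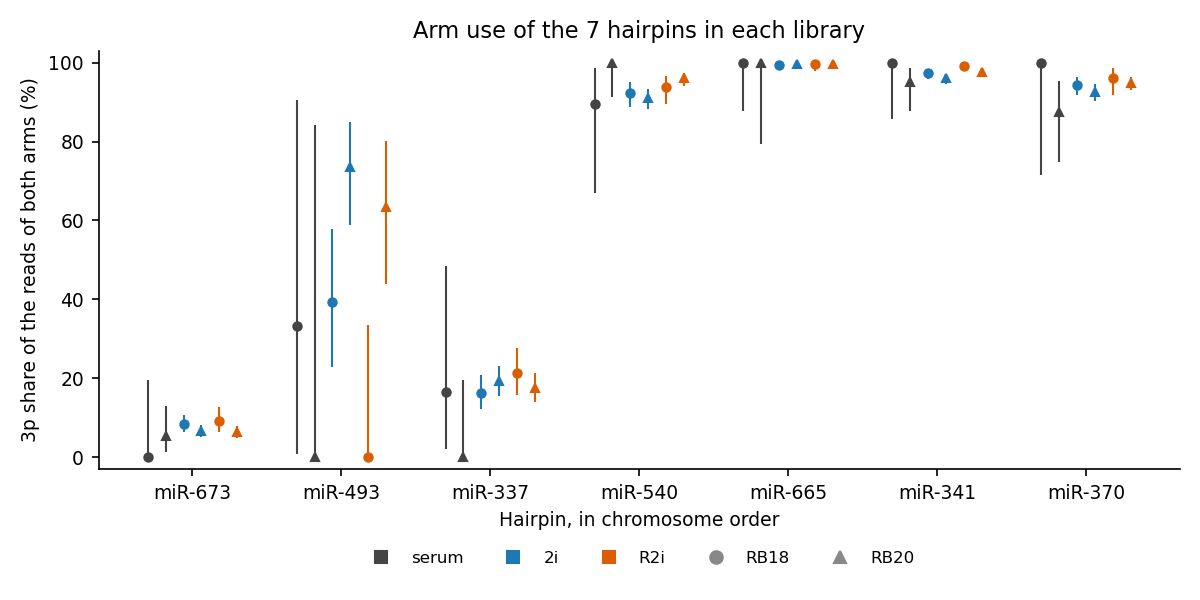
Share of 3p reads among the reads of both arms for the 7 hairpins, with 1 point per library and 95% exact binomial intervals. Hairpins other than miR-493 keep to one arm in all libraries, whereas miR-493 ranges from 0% in R2i RB18 (9 reads) to 73.5% in 2i RB20 (49 reads).

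Marker lists of other cell types were read beside these values, and their part in the result was not tested. Of the fibroblast list, 0 of 7 tested were called between ground state and serum, and its summed level was 2273 and 2992 normalized CPM in serum against 3521 to 4909 in the ground state, a 1.59-fold difference of means beside the 14-fold of the 10. Of the neural list 0 of 5 and of the endoderm list 0 of 3 were called. Of the blood list 1 of 4 was called, miR-451a of red cells. It had 0 and 3 counts in serum, 22 to 66 in the ground state and a log2 fold change of 4.07. The remaining tested members had negative values: -1.05 for miR-142a-5p, -1.14 for miR-142a-3p and -0.3 for miR-150-5p. Library counts of miR-142a-5p lay between 734 (R2i RB18) and 9128 (2i RB18), and its log2 fold change was 0.33 for 2i but -2.43 for R2i. A defining myeloid miRNA, miR-223-3p, was at 0 in every library. The summed level of the list was 3208 and 3263 in serum against 756 to 5187. Both tested muscle miRNAs, miR-1a-3p and miR-133a-3p, were lower in the ground state.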

How the data were processed

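The authors deposited raw read counts of 1907 mature miRNAs and a table of log2 values, which equalled log2(count / median-of-ratios factor + 1) within 0.005. The submitters' processing notes name FastQC 0.11.5, cutadapt 1.3, Bowtie 1.1.2, featureCounts 1.5 and mm10, without their roles. Counts were tested with edgeR 4.0.16 (R 4.3.3; TMM, filterByExpr at 10 counts, 15 in total, 1 coefficient per medium, all 6 libraries). Standard errors (SE) were obtained by dividing a log2 fold change by the root of its F statistic. On simulated counts with 190 of 563 tested miRNAs changed 4-fold, 87.9% (2i) and 86.3% (R2i) were recovered. The simulation gave all miRNAs the same spread and no difference between lines, so it does not give the power for these 10. The 10 miRNAs and all lists were chosen with earlier results of these data known. All 10 are named, with the most abundant tested miRNA of each other locus group and the 5 most alike; other names were chosen after their values were seen. RB18 and RB20 pair the libraries, as they name the cell line; line deviations correlated at 0.21 (serum with 2i), -0.121 (serum with R2i) and 0.207 (2i with R2i). Alternatives used DESeq2 1.42.0 and limma 3.58.1, the latter on the deposited log2 values. Tables used Python 3.11.15.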

Additional observations from a re-analysis of the deposited data

Results flagged for a closer look

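For 7 of the 10 miRNAs, R2i lay above 2i in one line and below it in the other. These differences between the lines were not tested, since each rests on 1 library per line and medium. The log2 ratio of R2i to 2i in RB20 minus that in RB18 was 0.06 for miR-673-5p, -0.14 for miR-673-3p, -0.16 for miR-337-5p, -0.28 for miR-341-3p and 0.32 for miR-665-3p. It was 0.79 for miR-370-3p, which was lower in R2i in RB18 (-0.54) and higher in RB20 (0.25), and -0.80 for miR-337-3p, which was higher in R2i in RB18 (0.59) and lower in RB20 (-0.21).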

How the results depend on the processing

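With the cell line as a replicate block, 9 of the 10 miRNAs were called in 2i, 8 in R2i, 9 in the ground state and 0 between R2i and 2i; the one changed call was that of miR-540-5p in R2i (log2 fold change 3.94, adjusted p = 0.0141 in edgeR). Crossing the R2i lines in that block, chosen after seeing the data, gave 9, 9, 9 and 0. All such counts include the sparse miRNAs and show only which calls held. In the main fit, 16.8% (2i), 15.1% (R2i) and 17.0% (ground state) of all tested miRNAs were called higher, and 0.35% between R2i and 2i. The same shares under each alternative are not given. The other alternatives gave 8 to 10 calls against serum, or 6 of 6 tested where at least 10 counts in every library were required, and 0 between R2i and 2i. Library totals in place of TMM moved the median of all tested miRNAs by 0.107 in R2i against serum, and the summed level in R2i to 1418 normalized CPM. Calls of miR-493-3p were gained without the filter on low counts (4.87 in 2i, 3.53 in R2i, 4.2 in the ground state), with only serum and 2i fitted (4.86), without R2i RB18 or R2i RB20 in 2i, and without R2i RB18 in the ground state. Without one serum library the fold changes against serum moved by over 1.5 times for 9 of the 10, all but miR-337-5p. Leaving out each library moved the R2i value of miR-493-3p between -2.40 and 6.14. Small differences between R2i and 2i changed sign. For miR-673-5p they were 0.053 in DESeq2, 0.078 with library totals, 0.04 in limma, 0.016 with only those media fitted and 0.021 with the crossed block. For miR-341-3p they were 0.037 in DESeq2 and 0.072 with library totals, and without the filter -0.0097 for miR-673-3p and -0.0015 for miR-337-5p. Leaving out each library gave -0.09 to 0.033 for miR-673-5p, -0.22 to 0.24 for miR-673-3p, -0.17 to 0.18 for miR-337-5p, -0.20 to 0.51 for miR-337-3p, -0.43 to 0.14 for miR-665-3p, -0.34 to 0.20 for miR-341-3p and -0.50 to 0.15 for miR-370-3p. The cause was not tested. Few serum reads were available for miR-673-3p, miR-493-3p, miR-337-3p and miR-540-5p, which had 4 counts or fewer in each serum library.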

Other observations

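The arms of the miR-493 hairpin were read in different proportions in the 2 lines. Pooled over 2i and R2i, miR-493-3p gave 31.0% (95% exact interval 17.6% to 47.1%) of 42 reads in RB18 and 69.6% (58.3% to 79.5%) of 79 reads in RB20. The 3p share was 39.4% of 33 reads in 2i RB18 and 0% of 9 in R2i RB18, beside 73.5% of 49 in 2i RB20 and 63.3% of 30 in R2i RB20. The intervals cover counting error only, the hairpin was chosen after its values were seen, and the difference was not tested.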
